A study of Mus musculus with 6 samples.

Results

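The genes described here are 35 members of the Toll-like receptor (TLR) and inflammasome system, out of 17854 genes in the table. They are listed by gene name, with no threshold on measured values, although the list was drawn up with earlier results of these data known. They are 12 TLRs, 3 proteins that TLRs need to bind ligand or to reach the endosome, 5 cytosolic sensors, 6 adaptors, 6 kinases or ligases and 3 inflammasome effectors. All 35 were found. Of these, 34 had enough counts to be tested, among 14289 genes tested in all, and Tlr11 did not pass the expression filter.

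TLRs are membrane receptors that recognise conserved molecules of microbes and of damaged cells. The cell-surface members bind lipids, lipopeptides and flagellin, and the endosomal members bind nucleic acids or microbial proteins after Unc93b1 has carried them there. Nearly all of them pass the signal to the adaptor Myd88, which gathers the Irak kinases and the ubiquitin ligase Traf6 and so switches on NF-kB. Inflammasomes form when a cytosolic sensor such as Nlrp3, Nlrc4 or Aim2 recruits the adaptor Pycard (ASC) and the protease caspase-1, which matures interleukin-1 beta and cleaves the pore-forming protein Gsdmd. Macrophages and neutrophils carry most of this machinery, while articular chondrocytes are known to use a smaller set, of which Tlr2 and Tlr4 are best studied in osteoarthritis.

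The data were bulk RNA-seq of Tomato+ cells in 2 groups of 3 libraries, all labelled as chondrocytes of male C57BL/6 mice. The first group, called MSC-derived here, was sorted from the knee cartilage of mice with knee osteoarthritis made by ligament surgery, which had later received an injection of Prrx1-lineage mesenchymal stromal cells (MSCs) sorted from the inguinal white fat of Prrx1-Cre; R26 tdTomato mice. The second group, called endogenous, was sorted from the joints of Prrx1-Cre; R26 tdTomato mice matched for age and sex, without surgery or injection as far as the sources describe. The Tomato label is switched on by Cre driven by Prrx1, a gene of limb mesenchyme, and stays on in all descendants, so it marks an origin and not a present cell type. The labels give no age at collection. Since surgery, injection, donor tissue and host all differed between the groups, their parts in a difference cannot be told apart. The labels do not tie a library to a mouse, so p-values measure the spread between these libraries.

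The libraries held between 22060628 and 24881796 expected counts (read counts per gene as estimated by RSEM), and 3 counts, taken as the smallest level that could be seen, corresponded to 0.121 to 0.136 CPM (counts scaled by library size). This floor covers counting error only. Endogenous replicate 1 stood apart: 3459 genes were at 0 in it, against 1338 and 1395 in replicates 2 and 3, and its chi-square statistic per gene against replicate 2 was 52.8, where replicates 2 and 3 gave 5.11 against each other. The chondrocyte label was checked against marker genes. All 10 chondrocyte markers were detected in every library but were lower in the MSC-derived ones, with summed levels of 2410 to 2486 against 26431 to 29668 in TPM (a level corrected for transcript length), and Col2a1, the main cartilage collagen, fell by 6.30 on the log2 scale. The 7 osteoblast markers (summed 234 to 250 TPM in the MSC-derived and 29805 to 49219 TPM in the endogenous libraries) and the 10 mesenchymal markers were also lower in the MSC-derived libraries. The 10 leukocyte, 12 macrophage and 12 neutrophil markers were all higher in the MSC-derived libraries. Their summed levels were 5141 to 5174, 25770 to 26546 and 147655 to 156344 TPM, against 421 to 465, 681 to 839 and 8278 to 11621 TPM in the endogenous libraries, and none of these 34 markers was at 0 in any library. Of the other lists, 4 of 8 dendritic cell markers were higher and 1 lower, and 5 of 7 B cell, 5 of 6 tested T and NK cell and 6 of 6 erythroid markers were higher. Ptprc, which encodes the pan-leukocyte antigen CD45, rose by 4.20 on the log2 scale and Csf1r, the receptor that macrophages need, by 5.88. The erythroid markers summed to 23435 to 24706 TPM in the MSC-derived and 5634 to 7684 TPM in the endogenous libraries. The names MSC-derived and endogenous follow the study's account of origin and are not cell types shown by these markers. Below, a level in MSC-derived or endogenous cells is that of the whole sorted sample, whatever its cell types. In bulk samples fewer cells of a type and less RNA per cell cannot be told apart, and how far these marker levels account for the results was not tested.

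Of the 34 members tested, 30 were higher and 0 lower in the MSC-derived libraries, by the quasi-likelihood test of edgeR at an adjusted p of up to 0.05. Over all 14289 genes, 31.3% were called higher and 30.3% lower. The median log2 fold change of the members was 2.57, against 0.05 over all genes tested. The 30 called genes had scaled CPM above every endogenous library in all 3 MSC-derived libraries, as did 38.2% of all genes, and 0 members lay below, as did 34.1%. The 4 members that did not pass were Tlr5, Tlr3, Ripk2 and Casp4. At an unadjusted p under 0.05, 0 of these 4 passed either. Without endogenous replicate 1, 31 members were higher and 0 lower, with a median of 2.44, and 1 of the 4, Casp4, was added. More genes were called in that fit over all 14289, with 5452 higher and 5483 lower, against 4468 and 4333 with all libraries.

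By layer, the values of the sensors were larger than those of the signalling proteins. The sensors, meaning the receptors, their accessory proteins and the cytosolic sensors, were higher for 17 of 19 tested, with a median log2 fold change of 3.17. The adaptors, kinases and ligase were higher for 11 of 12, but with a median of 0.95. Of the sensors, 16 of 19 had a log2 fold change over 2, against 4 of 12 adaptors and kinases. The 3 effectors had a median of 2.55, and 2 of them rose. Ptprc gives 1 mark for these values, as 7 of 19 sensors and 1 of 12 adaptors and kinases changed by more than its 4.20. It is a single gene, and the marker lists varied. Their median log2 fold changes were 4.25 (leukocyte), 8.28 (macrophage), 3.66 (neutrophil), 2.05 (dendritic cell), 2.94 (B cell), 2.86 (T and NK cell) and 2.08 (erythroid). Those of the other lists were -6.44 (chondrocyte), -2.33 (mesenchymal) and -6.06 (osteoblast). The largest change of a member was 7.82, for Tlr8. All medians given here are descriptions of unequal lists, and the differences between them were not tested.

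**Figure D1:**
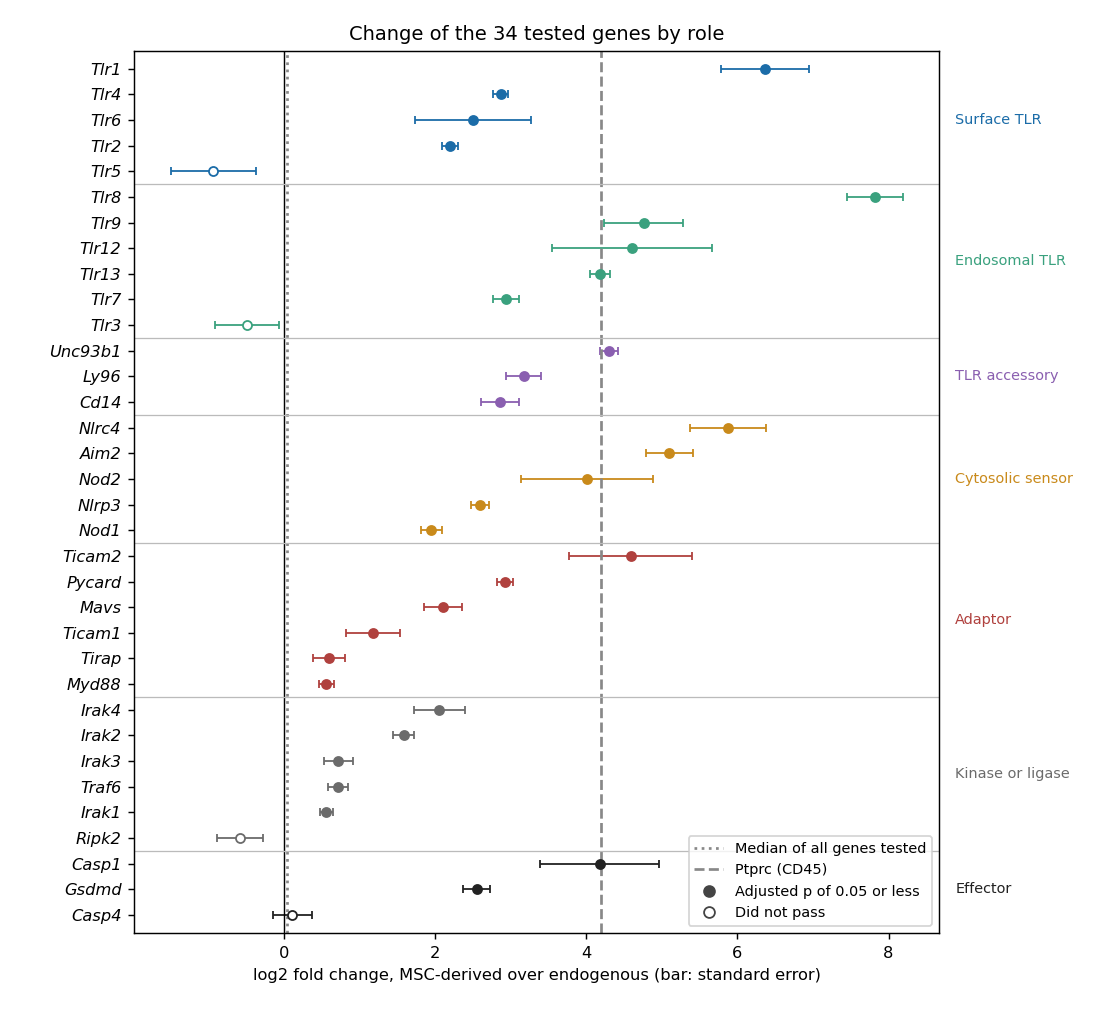
Log2 fold change of the 34 tested members (x axis) by gene and role (y axis), with bars for the standard error over 3 libraries a group; filled points passed an adjusted p of 0.05 and open points did not. The sensors reach a log2 value of 7.82 (Tlr8), while the kinases and ligase lie between -0.58 (Ripk2) and 2.06 (Irak4). The dotted line marks the median of all genes, at 0.05, and the dashed line marks Ptprc, at 4.20.

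Start-site sequences were not used to choose the members. RefSeq windows of 300 bases (build GRCm38.p6, 250 before the start and 50 after) were found for 27 of the 35 members, and each was searched on both strands for 3 motifs, each of which most of these windows lacked. GAGGAAGT, the core of the sites bound by the myeloid factor PU.1, was in the windows of 5 of 27 members (18.5%: Aim2, Pycard, Tlr1, Tlr9 and Tlr11), against 3.69% of 27025 genes. GAAANNGAA, a short form of the interferon response element, was in 5 of 27 (Irak3, Myd88, Tlr6, Tlr8 and Tlr11), against 9.76%. GGGANNTTC, a short form of the NF-kB site, was in 4 of 27 (14.8%: Aim2, Nod1, Tlr2 and Tlr3), against 4.47%. The letters of these motifs can overlap with those of related sites, and a match is a description of the sequence and not a bound site. The 4 windows below belong to Tlr8 and Tlr1, the members with the largest increases, to Aim2, which holds 2 of the motifs, and to Tlr3, which did not pass the test. They lie at chrX:167264280-167264579 on the minus strand (Tlr8), chr5:64933509-64933808 on the minus strand (Tlr1, 1 of 2 windows), chr1:173420354-173420653 on the plus strand (Aim2) and chr8:45410331-45410630 on the minus strand (Tlr3). Each is written along its gene from 5′ to 3′, and capitals mark a motif match on either strand.
Tlr8: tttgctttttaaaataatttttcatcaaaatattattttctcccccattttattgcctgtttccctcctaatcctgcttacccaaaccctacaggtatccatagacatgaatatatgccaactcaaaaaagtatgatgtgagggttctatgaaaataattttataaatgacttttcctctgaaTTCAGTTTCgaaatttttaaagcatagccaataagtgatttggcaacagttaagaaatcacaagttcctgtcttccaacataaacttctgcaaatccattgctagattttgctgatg
Tlr1: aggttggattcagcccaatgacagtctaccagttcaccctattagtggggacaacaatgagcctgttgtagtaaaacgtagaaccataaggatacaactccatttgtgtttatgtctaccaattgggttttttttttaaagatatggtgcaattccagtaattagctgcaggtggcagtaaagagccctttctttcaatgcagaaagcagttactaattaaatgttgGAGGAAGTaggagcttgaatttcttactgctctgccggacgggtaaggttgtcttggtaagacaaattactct
Aim2: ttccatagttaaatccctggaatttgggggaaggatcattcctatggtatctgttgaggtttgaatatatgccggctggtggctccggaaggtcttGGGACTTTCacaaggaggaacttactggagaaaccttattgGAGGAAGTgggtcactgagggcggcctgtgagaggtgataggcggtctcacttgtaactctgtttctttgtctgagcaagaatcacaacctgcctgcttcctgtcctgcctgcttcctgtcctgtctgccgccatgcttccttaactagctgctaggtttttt
Tlr3: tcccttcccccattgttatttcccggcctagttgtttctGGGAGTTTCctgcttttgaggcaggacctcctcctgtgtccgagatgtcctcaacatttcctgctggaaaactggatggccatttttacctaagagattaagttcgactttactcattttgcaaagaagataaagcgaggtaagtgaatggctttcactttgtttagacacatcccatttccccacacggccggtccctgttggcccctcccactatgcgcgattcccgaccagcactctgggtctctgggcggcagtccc
The match in Tlr8 is the interferon response form, read on the other strand. Tlr1 holds the PU.1 form 23 bases before its start, Aim2 holds the NF-kB form and then the PU.1 form, and Tlr3 holds the NF-kB form only. Of the 2 Tlr1 windows, the one with more motif matches is shown, and the other held none. Of the members with the PU.1 form, 4 of 5 were called higher. The same held for 4 of 5 with the interferon response form and 3 of 4 with the NF-kB form. Of all members tested, 30 of 34 were called higher. Tlr11, which holds the PU.1 and interferon response forms, was not tested.

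Among the cell-surface TLRs, 4 of 5 were higher. Tlr2, the receptor for lipopeptides that pairs with Tlr1 or Tlr6, was the most abundant TLR in both groups, at 144 ± 1.14 TPM in the MSC-derived and 42.3 ± 2.91 TPM in the endogenous cells (SD, n = 3). Its expected counts were 7626, 7329 and 6860 in the MSC-derived and 1253, 1534 and 1728 in the endogenous libraries. The groups stood well apart, with a log2 fold change of 2.20 ± 0.11 (SE; edgeR adjusted p = 2.09e-06). Tlr1, the partner for triacylated lipopeptides, was nearly absent from the endogenous libraries, with counts of 0, 8.18 and 8.44, against 515, 476 and 428. Its log2 fold change of 6.37 ± 0.59 (edgeR adjusted p = 5.47e-05) was the largest of the surface group, and it was 5.74 without endogenous replicate 1. Tlr6, the partner for diacylated lipopeptides, was present in 2 of the endogenous libraries (59.8 and 54.6 counts in replicates 2 and 3) and near 0 in replicate 1 (3 counts), against 233, 261 and 208. It rose by 2.50 ± 0.77 (edgeR adjusted p = 0.0238). Leaving out any of the MSC-derived libraries ended that call, with edgeR adjusted p between 0.0647 and 0.0760, and without endogenous replicate 1 the log2 fold change was 1.89.

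Tlr1 and Tlr6 are neighbouring near-copies, and 13.6% of the 50-base stretches of Tlr1 transcripts also occur in Tlr6. Their counts were fractional, since RSEM divides reads that fit both. The sum of the pair does not depend on that division: it was 748, 737 and 636 counts in the MSC-derived and 3, 68 and 63 counts in the endogenous libraries. Tlr4, the receptor for lipopolysaccharide, had counts of 2813, 2697 and 2509 against 308, 341 and 395, a log2 fold change of 2.87 ± 0.10 (edgeR adjusted p = 4.38e-07). Tlr5, the flagellin receptor, went the other way without passing the test. It had 41, 29 and 21 counts in the MSC-derived and 94, 33 and 36 in the endogenous libraries, a log2 fold change of -0.93 ± 0.56 (edgeR adjusted p = 0.187). Most of that value came with endogenous replicate 1, without which it was -0.32. On the TPM scale, all 3 MSC-derived libraries (0.33 to 0.58) lay below all 3 endogenous ones (0.69 to 2.32).

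Among the endosomal TLRs, 5 of the 6 tested were higher, with a median log2 fold change of 4.40. Tlr8, a receptor for RNA breakdown products, had the largest change of all members. It had 1174, 1219 and 1241 counts in the MSC-derived and 1, 5 and 9 in the endogenous libraries, and a log2 fold change of 7.82 ± 0.37 (edgeR adjusted p = 1.48e-06). Without endogenous replicate 3, which held most of those few counts, the log2 value was 8.51. Tlr13, which detects bacterial ribosomal RNA, was the most abundant endosomal TLR in the MSC-derived cells, at 28.1 ± 3.04 TPM against 2.09 ± 0.10 (SD, n = 3). Its counts of 2342, 2083 and 1707 against 97, 113 and 108 gave a log2 fold change of 4.19 ± 0.13 (edgeR adjusted p = 2.55e-07). Tlr7, the receptor for single-stranded RNA on the X chromosome beside Tlr8, rose less, by 2.94 ± 0.17 on the log2 scale, from 159 to 229 counts to 1378 to 1640.

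The remaining endosomal members were scarce. Tlr9, the receptor for unmethylated CpG DNA, had 134 to 163 counts in the MSC-derived and 2 to 8 in the endogenous libraries, and rose by 4.76 ± 0.52 on the log2 scale. Tlr12, a sensor of parasite profilin, had 177, 97 and 163 counts against 0, 1 and 16. Its log2 fold change of 4.61 ± 1.06 (edgeR adjusted p = 0.00681) rested on 1 library for its size, as it was 7.78 without endogenous replicate 3 and 3.96 without replicate 1. Tlr11, its partner in profilin sensing, had 14, 5 and 9 counts in the MSC-derived group, while each endogenous library had 0, which is at least 3.1-fold higher against a floor of 3 counts a library. It was not tested in the main analysis. With all genes above 0 kept, its adjusted p was 0.0177 in edgeR and 0.0117 in DESeq2, and 0.0526 in limma on log2(TPM + 1).

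Tlr3, the receptor for double-stranded RNA, was the exception among the endosomal members. Its counts were 156, 114 and 145 in the MSC-derived and 310, 111 and 130 in the endogenous libraries, and the groups overlapped. The log2 fold change was -0.49 ± 0.42 (edgeR adjusted p = 0.347), and without endogenous replicate 1 it was 0.07. Tlr3 differs from the other members of its family in signalling through Ticam1 (TRIF) and not through Myd88. Its mean level in the endogenous cells, 3.47 ± 2.49 TPM (SD, n = 3), was above those of Tlr7 and Tlr13, at 2.77 ± 0.796 and 2.09 ± 0.10 TPM, but that order rested on replicate 1. There Tlr3 was at 6.35 TPM, while in replicates 2 and 3 it was at 1.92 and 2.15 TPM, against 2.54 and 2.12 for Tlr7 and 2.17 and 1.98 for Tlr13, so the values of the 3 genes overlapped.

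**Figure D2:**
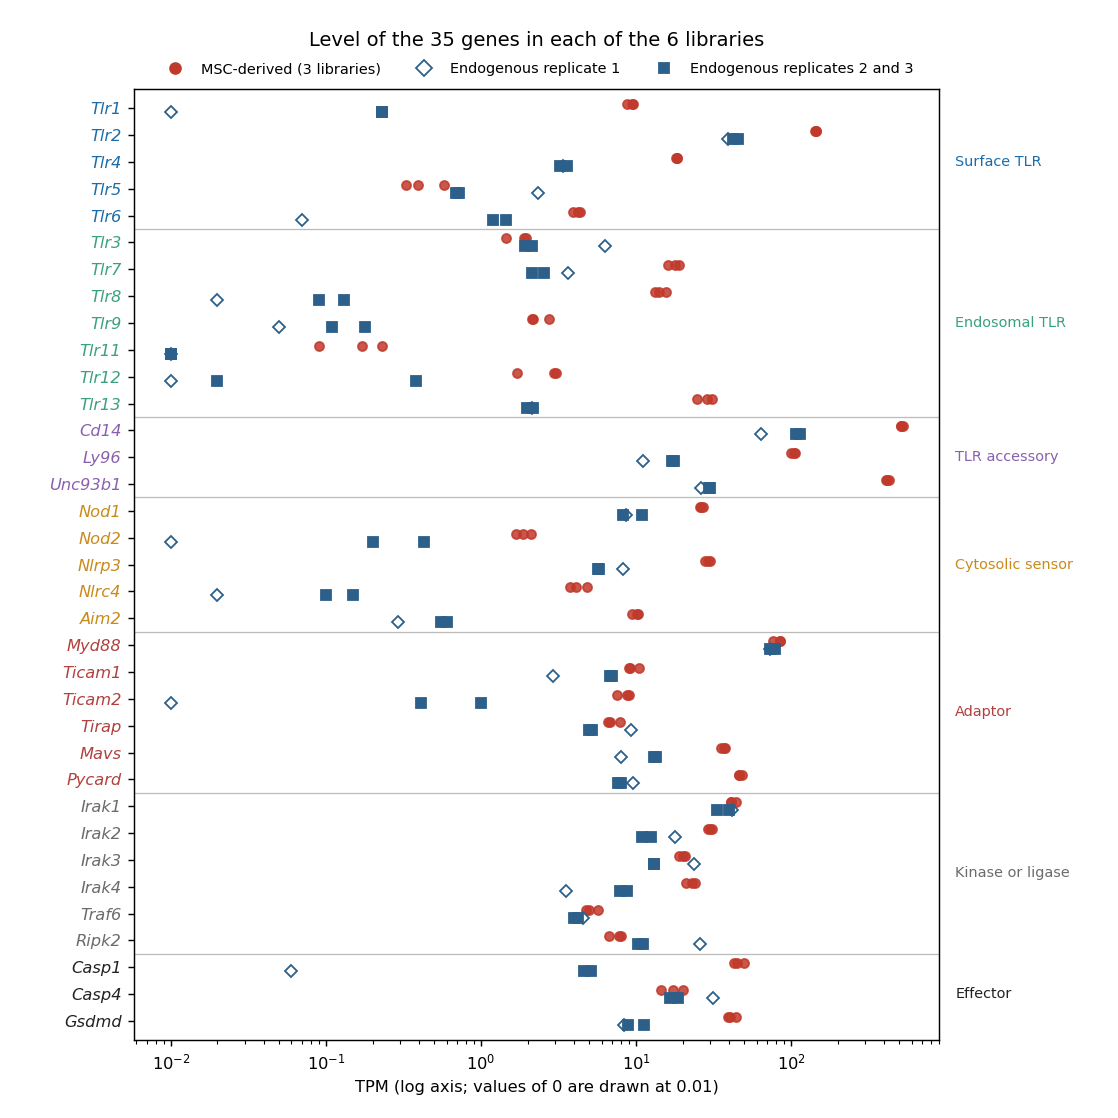
Level of each of the 35 members (y axis, by role) in TPM on a log axis (x axis), with 1 point per library: circles for the 3 MSC-derived libraries, an open diamond for endogenous replicate 1 and squares for endogenous replicates 2 and 3. Red and blue points are far apart for most sensors and touch for Myd88, Tirap, Irak1 and Irak3, while endogenous replicate 1 lies to the left of the other two for Tlr6 and Casp1 and to the right for Tlr3, Tlr5, Ripk2 and Casp4.

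The make-up of the TLR RNA differed between the groups as well as its amount. The 12 TLRs summed to 239 to 245 TPM in the MSC-derived and 54.7 to 57.9 TPM in the endogenous libraries. Tlr2 took 59.3% ± 0.641 of that sum in the MSC-derived cells and 74.7% ± 5.20 in the endogenous cells (SD, n = 3). Tlr13 took 11.6% ± 1.09 against 3.70% ± 0.274, Tlr8 took 5.89% ± 0.597 against 0.141% ± 0.0970, and Tlr1 took 3.80% ± 0.138 against 0.273% ± 0.236. In the other direction, Tlr3 took 0.728% ± 0.116 against 6.09% ± 4.30 and Tlr5 took 0.178% ± 0.0516 against 2.18% ± 1.61. Endogenous replicate 1 set much of both means, with 11.1% for Tlr3 and 4.04% for Tlr5, against 3.51% and 3.72% for Tlr3 and 1.26% and 1.24% for Tlr5 in replicates 2 and 3. Without it the differences in share were -2.89 percentage points for Tlr3 and -1.08 for Tlr5, each moved by over 1.5 times. Shares of the same sum constrain each other, so a larger share of Tlr13 lowers that of Tlr2. Tlr4 and Tlr7 moved less, from 5.99% ± 0.170 to 7.51% ± 0.0564 and from 4.89% ± 1.37 to 7.25% ± 0.488. For 11 of the 12 TLRs the shares of the groups did not overlap, each with a two-sided exact permutation p = 0.1. That is the smallest p that 3 against 3 libraries allows, so that none could reach 0.05. Such separation was common in these libraries: in scaled CPM, 38.2% of all genes tested lay above and 34.1% below. Non-overlap alone therefore does not set the TLRs apart from other genes. The share of Tlr6 overlapped, at 1.72% ± 0.110 against 1.61% ± 1.32 (exact permutation p = 1).

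**Figure D3:**
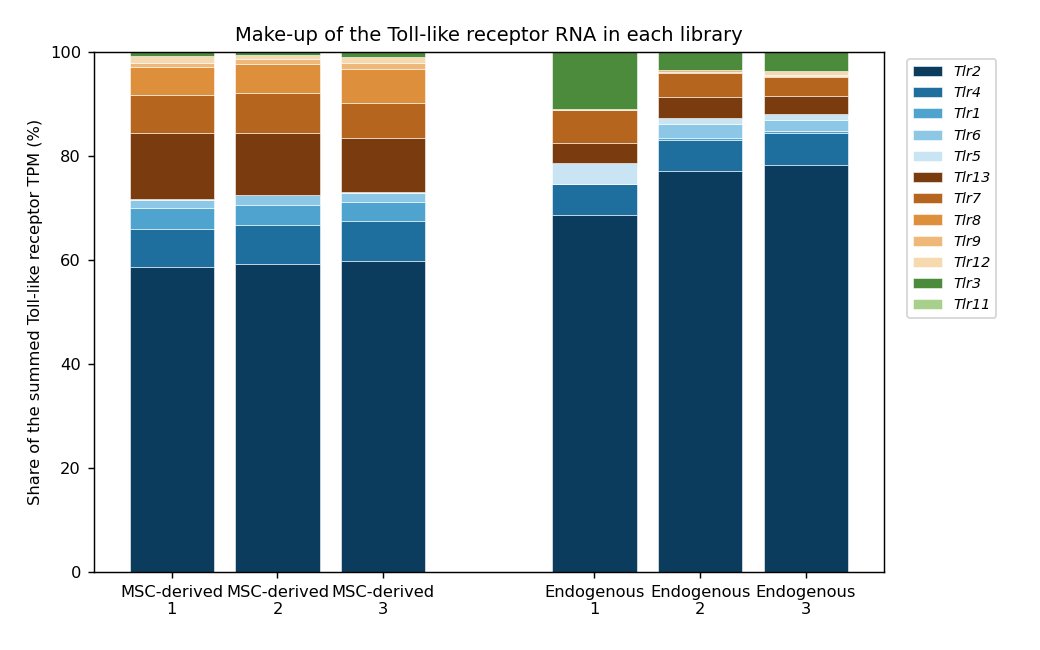
Share of each TLR in the summed TPM of the 12 TLRs (y axis, percent) in each of the 6 libraries (x axis), with blue for surface TLRs, brown and orange for endosomal TLRs and green for Tlr3 and Tlr11. Tlr2 takes 58.6% to 59.9% of each MSC-derived bar and 68.7% to 78.2% of each endogenous bar, and endogenous replicate 1 has the largest share of Tlr3, at 11.1%.

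The 3 accessory proteins all rose. Cd14, which hands lipopolysaccharide to Tlr4, was the most abundant of the 35 members in both groups, at 516 ± 5.75 TPM against 95.0 ± 27.4 (SD, n = 3). Its counts were 15304, 14327 and 13587 in the MSC-derived and 1121, 2154 and 2405 in the endogenous libraries, with a log2 fold change of 2.86 ± 0.26 (edgeR adjusted p = 4.65e-05). Ly96 (MD-2), the part of the Tlr4 complex that holds the lipid, rose from 15.3 ± 3.68 to 103 ± 3.49 TPM, a log2 fold change of 3.17 ± 0.23. Unc93b1, the chaperone that brings the endosomal TLRs to their place, rose most, by 4.30 ± 0.12 on the log2 scale (edgeR adjusted p = 1.55e-07), from 648, 832 and 893 counts to 17655, 15985 and 15533.

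Ratios of TPM within a library were compared for 5 pairs of partners, in a design where no p can fall under 0.1 and a larger p does not show that partners moved alike. Cd14 was 28.3 ± 0.365 times Tlr4 in the MSC-derived and 28.0 ± 7.87 times Tlr4 in the endogenous cells (exact permutation p = 1). The spread of the endogenous ratio came with replicate 1, at 18.9 against 33.1 and 31.9, and without that library the MSC-derived ratios lay below both others. Ly96 was 5.66 ± 0.227 and 4.50 ± 1.12 times Tlr4, and the groups overlapped (exact permutation p = 0.2). By contrast, Tlr1 was 0.0641 ± 0.00299 times Tlr2 in the MSC-derived cells and 0.00351 ± 0.00305 times Tlr2 in the endogenous cells, and these did not overlap (exact permutation p = 0.1, the smallest possible). The ratio of Tlr6 to Tlr2, 0.0290 ± 0.00161 against 0.0208 ± 0.0170, overlapped (exact permutation p = 0.7). Over these 17 shares and ratios the adjusted p could not fall under 0.1.

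The 5 cytosolic sensors all rose, with a median log2 fold change of 4.01. Nlrp3, the sensor that responds to crystals, ion flux and damage, was the most abundant of them in the MSC-derived cells, at 28.9 ± 1.07 TPM against 6.57 ± 1.48 (SD, n = 3). It had 2072, 2123 and 1954 counts against 368, 293 and 305, and a log2 fold change of 2.60 ± 0.12 (edgeR adjusted p = 1.67e-06). Nod1, which detects bacterial peptidoglycan and is found in many cell types, was the most abundant in the endogenous cells, at 9.26 ± 1.40 TPM, and changed least. Its counts of 2180, 1969 and 1909 against 421, 587 and 478 gave a log2 fold change of 1.95 ± 0.14 (edgeR adjusted p = 1.38e-05).

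Nlrc4, the sensor that works with the flagellin-binding Naip proteins, had the largest change among the cytosolic sensors. Its 303, 338 and 248 counts in the MSC-derived libraries compared with 1, 5 and 8 in the endogenous ones, a log2 fold change of 5.88 ± 0.50 (edgeR adjusted p = 3.62e-05) that was 6.47 without endogenous replicate 3. Aim2, which binds double-stranded DNA in the cytosol, had 514 to 614 counts against 8.14 to 20.0 and rose by 5.10 ± 0.31 on the log2 scale. Nod2, the sensor of muramyl dipeptide, had 147, 175 and 124 counts against 0, 15 and 11. Its log2 fold change of 4.01 ± 0.87 (edgeR adjusted p = 0.00520) became 3.37 without endogenous replicate 1 and 4.68 without replicate 2.

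The adaptors were all called higher, though unequally. Myd88, the adaptor shared by nearly all TLRs, had the highest level of the adaptors in both groups and the smallest change. It had 2941, 2794 and 2399 counts in the MSC-derived and 1516, 1736 and 1971 in the endogenous libraries, and rose by 0.57 ± 0.10 on the log2 scale (edgeR adjusted p = 0.00200). In TPM, which is scaled to the sum over all genes, its groups overlapped, at 81.8 ± 4.78 and 74.8 ± 3.53 (SD, n = 3), and limma on log2(TPM + 1) gave an adjusted p of 0.303. Ticam2 (TRAM), which links Tlr4 to Ticam1, had the largest change, with 530, 519 and 415 counts against 0, 17 and 41. Its log2 fold change was 4.59 ± 0.81 (edgeR adjusted p = 0.00188), and it was 3.94 without endogenous replicate 1 and 5.72 without replicate 3. Of the 50-base stretches of Ticam2, 13.7% also occur in Tmed7, its neighbour on the same strand, so its counts are uncertain where the counting could divide them.

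Pycard, the adaptor on which caspase-1 is activated, rose by 2.93 ± 0.10 on the log2 scale with little spread, from 222, 214 and 212 counts to 1798, 1785 and 1614. Mavs, the mitochondrial adaptor of the cytosolic RNA sensors, rose by 2.11 ± 0.25, from 249 to 516 counts to 1738 to 2036. Ticam1 and Tirap, the adaptors of Tlr3 and of Tlr2 and Tlr4, gave calls that 1 library could end. Ticam1 had 550, 459 and 426 counts against 91, 253 and 258, a log2 fold change of 1.18 ± 0.36 (edgeR adjusted p = 0.0236), and the call was lost without any MSC-derived library (adjusted p 0.0590 to 0.0768). Tirap had 598, 587 and 640 counts against 501, 309 and 339, a log2 fold change of 0.60 ± 0.21 (edgeR adjusted p = 0.0412). It kept its call in only 1 of the 6 fits that left out a library, the one without endogenous replicate 1, and the adjusted p was 0.0785 to 0.138 in the others. Pycard, Tirap and Myd88 share 11.5%, 7.88% and 7.42% of their 50-base stretches with a gene on the other strand, as do Tlr3 and Irak4 with 5.3% and 5.11%. Without strand in the counting such reads cannot be told apart. The transcripts searched for shared stretches may differ from those used in the counting, which may not have included every partner gene.

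Among the kinases and the ligase, 5 of 6 rose, with a median log2 fold change of 0.72. Irak1, the kinase released from the Myd88 complex, was the most abundant in both groups, at 42.0 ± 1.62 and 38.4 ± 4.44 TPM (SD, n = 3). Its counts of 2721, 2589 and 2587 against 1661, 1774 and 1637 gave a log2 fold change of 0.57 ± 0.08 (edgeR adjusted p = 7.83e-04), while its TPM overlapped between the groups. Irak4, the kinase that acts first, had the largest change, with 1108, 972 and 975 counts against 109, 276 and 314 and a log2 fold change of 2.06 ± 0.34 (edgeR adjusted p = 0.00139). Irak2 rose by 1.59 ± 0.14 and Traf6, the ubiquitin ligase that the Irak kinases bind, by 0.71 ± 0.13. Irak3, a pseudokinase that restrains the Myd88 complex, had 1170, 1015 and 1027 counts against 806, 505 and 533. It rose by 0.72 ± 0.20 (edgeR adjusted p = 0.0140), and its call was lost without MSC-derived replicate 1 (adjusted p = 0.0513).

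Ripk2, the kinase of the Nod1 and Nod2 pathway, was not called higher, although both of its sensors were. It had 400, 367 and 300 counts in the MSC-derived and 764, 350 and 394 in the endogenous libraries. The log2 fold change was -0.58 ± 0.31 (edgeR adjusted p = 0.138), and the groups overlapped in scaled CPM. In TPM they did not, at 7.49 ± 0.711 against 15.7 ± 8.74 (SD, n = 3). Endogenous replicate 1 set much of that mean, at 25.75 TPM against 10.23 and 11.04 TPM in replicates 2 and 3. With 1 library left out in turn, the log2 fold change of Ripk2 ranged from -0.78 to -0.19. Over the 35 members, 27 lay above every endogenous library in TPM, 2 lay below (Tlr5 and Ripk2) and 6 overlapped (Tlr3, Casp4, Myd88, Tirap, Irak1 and Irak3). The share of all genes that lay apart in TPM was not computed. In scaled CPM it was 38.2% above and 34.1% below. The median change of all genes was -0.28 in limma on log2(TPM + 1), against 0.05 in the main test, so values in TPM sit lower throughout.

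Among the effectors, caspase-1 and its substrate rose, and the other inflammatory caspase did not pass the test. Casp1, the protease of the canonical inflammasome, had 1129, 1239 and 1074 counts in the MSC-derived and 1, 92 and 88 in the endogenous libraries. Its log2 fold change was 4.18 ± 0.79 (edgeR adjusted p = 0.00264), and it was 3.54 without endogenous replicate 1. Gsdmd, whose cleaved end forms pores in the cell membrane, rose by 2.55 ± 0.18, from 158, 191 and 257 counts to 1401, 1181 and 1154. Casp4, known as caspase-11 in the mouse, senses lipopolysaccharide inside the cell and also cleaves Gsdmd. It had 323, 426 and 338 counts against 432, 232 and 292, with a log2 fold change of 0.11 ± 0.26 (edgeR adjusted p = 0.725). Without endogenous replicate 1 the value was 0.34, with an adjusted p of 0.0494. Casp4 was the most abundant effector of the endogenous cells, at 22.1 ± 7.93 TPM, and the least abundant in the MSC-derived cells, at 17.3 ± 2.75 TPM (SD, n = 3). The ratio of Casp1 to Nlrp3 in TPM was 1.58 ± 0.0587 in the MSC-derived cells, and 0.00725, 0.888 and 0.813 in the 3 endogenous libraries.

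In the endogenous cells, 25 of 35 members had a mean of at least 1 TPM, against 33 of 35 in the MSC-derived cells. The order of their levels differed in a few places. The 5 most abundant members of the endogenous cells were Cd14, Myd88, Tlr2, Irak1 and Unc93b1, and those of the MSC-derived cells were Cd14, Unc93b1, Tlr2, Ly96 and Myd88. Casp1 was 22nd in order in the endogenous and 7th in the MSC-derived cells, while Ripk2 was 8th and 25th and Casp4 was 6th and 19th. These orders rest on means, in which endogenous replicate 1 stood apart from replicates 2 and 3. There Casp1 was at 0.06 TPM against 5.09 and 4.64, Ripk2 at 25.75 against 10.23 and 11.04, and Casp4 at 31.15 against 16.46 and 18.65. Tlr5, counted among the 25 members above, was at 2.32 TPM there against 0.69 and 0.72. Endogenous replicate 1 had the lowest scaled CPM of the 3 endogenous libraries for 23 of the 35 members and the highest for 10. It was at 0 for 5 members (Tlr1, Tlr11, Tlr12, Nod2 and Ticam2), where endogenous replicates 2 and 3 were each at 0 for 1 (Tlr11).

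Other genes of the same pathways, from a list of 73 names, changed in both directions. Of the 72 tested, 45 were higher and 7 lower, with a median log2 fold change of 0.98, where 31.3% of all genes tested were higher and 30.3% lower. The accessory pair Cd180 and Ly86 (RP105 and MD-1), a TLR homologue and its partner, had among the largest increases, by 6.89 ± 0.20 and 6.35 ± 0.32 on the log2 scale. Cd180 had 1364 to 1477 counts in the MSC-derived and 9 to 15 in the endogenous libraries. Il1a, the alarmin interleukin-1 alpha, had 3170 to 3415 counts against 14, 31 and 69, a log2 fold change of 6.35 ± 0.41 that was 7.07 without endogenous replicate 3. Naip6, a flagellin-binding partner of Nlrc4, had 117 to 135 counts against 0, 6 and 2 and rose by 5.41 ± 0.81, which was 6.75 without endogenous replicate 2 and 4.80 without replicate 1. Naip genes are near-copies of each other, so their counts are uncertain. Of the cytokines that caspase-1 matures, Il1b rose by 2.89 ± 0.12 and Il18 by 4.92 ± 0.10.

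The 4 largest decreases on that list, among genes with at least 10 counts in every endogenous library, were of other kinds. Nlrp6, an inflammasome sensor best known from the gut, had 0 counts in each MSC-derived library and 83, 13 and 28 in the endogenous ones, which is at least 12.8-fold lower against a floor of 3 counts a library (edgeR adjusted p = 0.00550). In limma its call was lost on log2(FPKM + 1) and log2(TPM + 1), with adjusted p between 0.0524 and 0.0780. Sarm1, an adaptor with a TIR domain that acts mainly in nerve degeneration, had 13, 1 and 7 counts against 34, 26 and 32. Its log2 fold change of -2.20 ± 0.78 (edgeR adjusted p = 0.0413) was -2.91 without MSC-derived replicate 1, and the call was lost in 4 of the 6 fits that left out a library (adjusted p 0.0727 to 0.116) and with all genes above a count of 0 kept (0.0678). Nlrc3, an inhibitor of TLR and DNA-sensing signals, fell by 0.95 ± 0.19 on the log2 scale, and Lbp, which carries lipopolysaccharide to Cd14, fell by 0.91 ± 0.07. Lbp had 3032 to 3500 counts in the MSC-derived and 5600 to 6040 in the endogenous libraries, so it moved against Cd14, Ly96 and Tlr4.

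**Figure D4:**
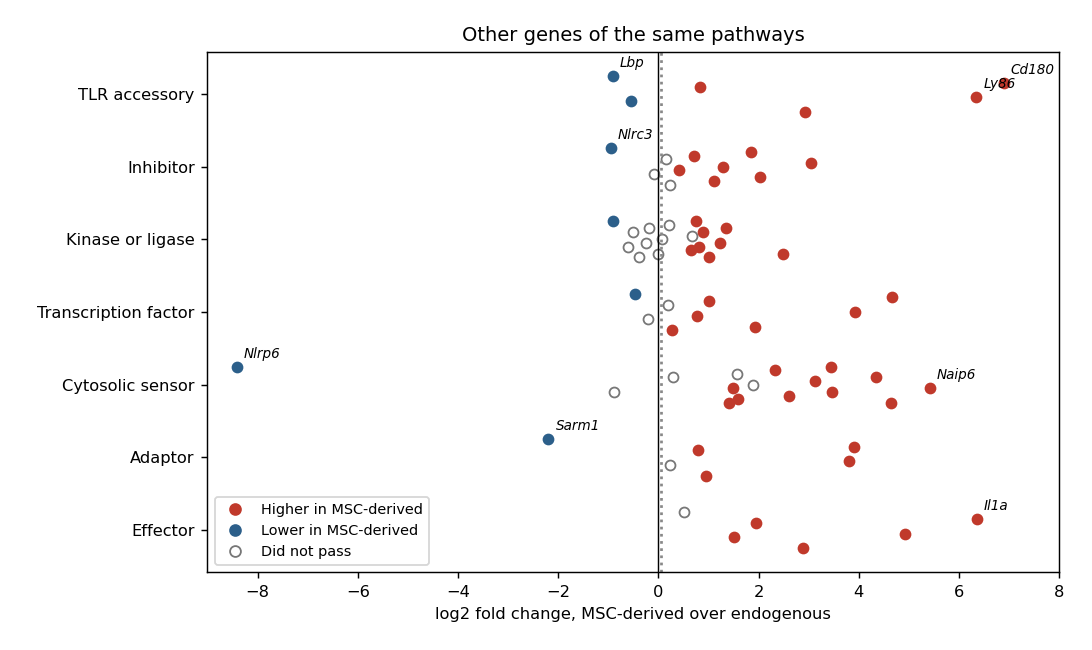
Log2 fold change (x axis) of the 72 tested genes of the wider pathway list by role (y axis; heights within a role are only for legibility), with red for higher, blue for lower and open for not passing an adjusted p of 0.05. Of the 72, 45 are red and 7 are blue, and the 4 largest increases and decreases are named, with Nlrp6, at 0 counts in every MSC-derived library, drawn at a fitted value that is no estimate of its size.

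Downstream, 6 of the 9 transcription factors on the list were higher and 1 lower. Irf8 and Irf5, which act after endosomal TLRs in myeloid cells, rose by 4.66 ± 0.28 and 3.92 ± 0.34 on the log2 scale. Irf7 rose by 1.92 ± 0.09, Rel by 1.01 ± 0.09, Irf3 by 0.78 ± 0.13 and Relb by 0.28 ± 0.10 (edgeR adjusted p = 0.0489). Nfkb1 and Nfkb2 did not pass the test, at -0.22 ± 0.16 and 0.20 ± 0.08, and Rela, the main partner of Nfkb1, fell by 0.47 ± 0.08 on the log2 scale. Nfkbia, the inhibitor that NF-kB induces, stood at 0.16 ± 0.13 (edgeR adjusted p = 0.327), while Tnfaip3, another inhibitor of the pathway, rose by 2.03 ± 0.07. Of the 18 kinases and ligases on the list, 8 were higher and 1 lower, with a median log2 fold change of 0.43. Of its 16 tested cytosolic sensors, 11 were higher and 1 lower, with a median of 2.11. Over all genes tested, 31.3% were higher and 30.3% lower, and the 2 lists were not tested against each other. Each of these groups held higher, lower and uncalled genes. How far the levels of the cell type markers given above account for these changes was not tested.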

How the data were processed

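Bulk RNA-seq of 6 libraries was analysed, 3 a group, with groups and replicate numbers from the sample titles. The study's methods name SOAPnuke, HISAT2, Bowtie2 and RSEM, and the submitters' processing notes name Bowtie2 2.2.5, RSEM 1.2.12 and mm9. The methods give other versions of Bowtie2 and RSEM than the notes, and which of them made the deposited values is not settled. Strand use in counting is not given in the sources used here. The authors deposited expected counts per gene as estimated by RSEM, and TPM and FPKM, which divide by length and library size. Columns of normalized counts and group averages were not used, and 0 sample columns were left unmapped. Expected counts were rounded (20.6% of values changed) and then tested in R 4.3.3 with edgeR 4.0.16 (filterByExpr, TMM factors, quasi-likelihood F test, all 6 libraries, no block), with Benjamini-Hochberg adjustment over 14289 genes and a threshold of 0.05. The standard error is the log2 fold change divided by the square root of F. Scaled CPM uses TMM factors. The fit was checked on simulated counts; a first limit on recovered genes was missed and then set on well-measured 4-fold changes, so smaller changes can go uncalled. Shares and ratios used exact permutation tests (scipy 1.17.1).

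The members and lists were chosen with earlier results of these data known. All members are named by role, with counts per library for the most abundant, the largest and smallest changes of each role and those that did not pass. From the pathway list the 4 largest called increases and decreases with at least 10 counts in every library of the higher group are named, and genes beyond those, such as the transcription factors and cytokines, were named after their values were seen. The 2 groups came from different mice, so the replicate numbers do not pair libraries by animal. Deviations from the group means correlated between -0.0145 and 0.0178 across groups. With 3 libraries a group, these values cannot exclude a processing step shared by same-numbered libraries. Transcripts for the search for shared 50-base stretches and promoter windows came from reference tables, and 8 members had no window. Alternatives were DESeq2 1.42.0, limma 3.58.1 on log2(TPM + 1), log2(FPKM + 1) and log2(FPKM + 0.1), 3 other scalings, TMM leaving out the 50 genes of highest count, a looser and a stricter filter, the block, each library left out and 2 thresholds. Figures were drawn with matplotlib 3.10.9.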

Additional observations from a re-analysis of the deposited data

How the results depend on the processing

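Of the 30 members called higher, 23 were called in all 18 alternative fits, and 0 changed sign in any. Irak1, Irak3, Myd88, Ticam1, Tirap and Traf6 lost their call in limma on log2(TPM + 1), with log2 values of 0.13, 0.30, 0.13, 0.75, 0.15 and 0.24, and with them the adaptors and kinases called higher went from 11 to 5 under either filter, while the pathway genes called lower rose from 7 to 11 under the main filter. This scale places the median of all genes at -0.28. Tirap also lost its call under upper-quartile scaling (adjusted p 0.0549), and Irak3, Ticam1, Tirap and Tlr6 lost theirs when some library was left out. With 1 library left out in turn, the members called higher numbered 26 to 31 and those called lower 0. In those fits all genes called higher numbered 3670 to 5452 and lower 3780 to 5483, dendritic cell markers called higher 4 to 7, B cell markers 3 to 7 and T and NK cell markers 2 to 6.

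At an adjusted p of 0.001, 2134 genes were higher and 2380 lower, with 19 members, 4 adaptors and kinases, 1 effector, 26 pathway genes, 1 dendritic, 3 B and 1 T and NK cell marker higher, and 1 pathway gene and 0 dendritic markers lower. With a log2 change of 1 or more in either direction required beside an adjusted p of 0.05, 2756 genes were higher, with 6 adaptors and kinases, and 2 pathway genes were lower. Casp4, which was not called, changed sign in limma on log2(TPM + 1) under both filters (-0.29) and without MSC-derived replicate 2 (-0.01) or endogenous replicate 2 (-0.0624), within a range of -0.0624 to 0.34 over libraries left out. Tlr3 changed sign without endogenous replicate 1 (0.0738), within a range of -0.74 to 0.0738. Nlrp6 lost its call in limma on log2(FPKM + 1) and log2(TPM + 1), and Sarm1 under the looser filter. The difference in the share of Tlr6 between groups, 0.110 percentage points, became -0.0924 with expected counts in place of TPM and -0.634 without endogenous replicate 1, within -0.634 to 0.631 over libraries left out. Without that replicate the differences in the ratios of Tlr6 to Tlr2 and Cd14 to Tlr4 became -0.00132 and -4.20, within -0.00132 to 0.0150 and -4.20 to 2.89. The cause of these changes was not tested.

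With the replicate number as a block, 8023 genes were called in place of 8801, and Tirap and Sarm1 alone among the genes named by rule lost their call (adjusted p 0.0583 and 0.0650). The block pairs only numbers, so this says nothing about the size of an effect. Folds of members with under 20 counts in every endogenous library rest on few reads.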
